A study of Homo sapiens with 26 samples.

Results

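The human mitochondrial genome is transcribed into 37 annotated genes, and every row of the deposited count table that lies on chromosome M was taken as a member. They are 13 coding genes, 2 ribosomal RNAs (rRNAs) and 22 transfer RNAs (tRNAs), 37 of 57773 rows, and each is a single exon. The choice rests on position alone. The cells were TF-1, an established human erythroleukemia line that needs the cytokine GM-CSF. Knockout (KO) groups were TET2 -/- clones F4 and A12, and wild-type (WT) groups were clones A7 and C4, so each genotype is represented by 2 clones of 1 line. TET2 is an enzyme that oxidises 5-methylcytosine in DNA. Treatment was given on 3 days in a row, as 200 nM 5-azacytidine (Aza), a cytosine nucleoside analogue known to trap and deplete the enzymes that methylate DNA, or as the solvent DMSO. RNA was taken before treatment, and at 72 h and 264 h counted from the first dose. Experimental batch 1 held every clone in every condition, and batch 2 held 6 libraries of the KO clones in DMSO. In batch 2 the labels of the libraries harvested before treatment also name DMSO, and these formed a group of their own. The batch 1 library of clone F4 at 72 h in DMSO failed quality control per its label and was left out, which left 25 of 26 libraries (15 KO and 10 WT) in 11 groups.

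Mitochondrial DNA is copied into long RNAs that run almost around the circle, one from each strand. Most tRNAs lie between the other genes, and cutting them out of the long RNAs frees the mRNAs and rRNAs. The coding genes supply core subunits of the respiratory chain: 7 belong to complex I (NADH dehydrogenase), 1 to complex III (cytochrome b), 3 to complex IV (cytochrome c oxidase) and 2 to ATP synthase. All other subunits, all of complex II, and the mitochondrial RNA polymerase and its factors come from nuclear genes. Libraries were made with a stranded kit for mRNA, which picks RNA by its poly(A) tail. Mitochondrial mRNAs and rRNAs have short tails, mature tRNAs are shorter than most sequenced fragments, and the mRNA of MT-ND6 is known to lack a tail, so levels of different members are not levels of the RNA in the cell.

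The sequences that matter for reading the counts are 1 overlapping coding gene and 5 tRNAs. They were taken from GENCODE release 29 transcripts by gene ID. All 37 members have the same start, end and strand there (GRCh38) as in the deposited table (hg19). MT-ATP8 (ENSG00000228253.1, chrM:8366-8572, plus strand) shares its last 46 bases, in capitals, with the start of MT-ATP6. MT-TF (chrM:577-647), MT-TV (chrM:1602-1670) and MT-TL1 (chrM:3230-3304), all on the plus strand, flank the rRNA genes and rose with the rRNAs at 72 h, as described below. MT-TN (chrM:5657-5729) and MT-TC (chrM:5761-5826), both on the minus strand, had the highest counts of the tRNA rows.
MT-ATP8: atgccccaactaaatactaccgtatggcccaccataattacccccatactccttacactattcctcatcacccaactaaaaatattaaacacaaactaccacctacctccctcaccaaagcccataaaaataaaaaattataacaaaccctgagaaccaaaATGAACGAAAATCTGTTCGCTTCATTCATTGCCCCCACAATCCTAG
MT-TF: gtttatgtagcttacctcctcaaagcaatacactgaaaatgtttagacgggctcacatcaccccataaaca
MT-TV: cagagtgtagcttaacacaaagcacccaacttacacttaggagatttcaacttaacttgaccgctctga
MT-TL1: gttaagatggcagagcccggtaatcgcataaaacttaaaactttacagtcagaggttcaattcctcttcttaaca
MT-TN: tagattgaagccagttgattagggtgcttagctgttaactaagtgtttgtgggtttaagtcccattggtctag
MT-TC: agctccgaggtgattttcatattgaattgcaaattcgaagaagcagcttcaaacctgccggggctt
MT-ND6 and the tRNA genes MT-TQ, MT-TA, MT-TN, MT-TC, MT-TY, MT-TS1, MT-TE and MT-TP lie on the minus strand. The counting command sets no strand option, so a read from the opposite strand of a gene cannot be told apart from a read of the gene.

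Total counts were 24992192 to 40187322 per library (median 27477937). TET2 RNA was present in both genotypes, at 24.9 to 46.4 CPM (counts divided by library size in 1000000 counts) in KO (median 32.2) and 22.5 to 29.96 CPM in WT (median 28.9), so this count over all exons does not check the knockout. Of 8 markers of TF-1 and its lineage, 7 were present in every library, led by the transferrin receptor TFRC (1439 to 5112 CPM), and CSF2RA had no count in any. Lymphoid markers summed to 2.41 to 4.54 CPM, with MS4A1 at 0 in all libraries. Libraries of the same clone deviated together from their group means, except that WT libraries harvested before treatment resembled the later libraries of the other WT clone. Labels were kept as given, and a count that changes when they are exchanged is named.

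Rows of chromosome M took 5.97% to 7.92% of all counts in the 25 libraries (median 6.85%), and the widest 95% Wilson interval of a library was ± 0.0101 percentage points, for counting error only. Before treatment the KO clones were at 6.85% and 7.55% and the WT clones at 7.06% and 6.42%. At 72 h in DMSO, KO clone A12 reached 7.92% and the WT clones 7.56% and 7.18%, and in Aza the KO clones were at 7.30% and 7.92% and the WT clones at 7.66% and 7.08%. The 264 h libraries of batch 1 were lower: 6.36% and 6.86% (KO) and 7.05% and 6.33% (WT) in DMSO, and 6.26% and 5.97% (KO) and 6.26% and 6.42% (WT) in Aza. In the 7 pairs of batch 1 libraries of 1 clone and agent the share was higher at 72 h than at 264 h. Each 72 h library was also above the pre-treatment library of its own clone and batch. Over all clones of batch 1, the 72 h and pre-treatment libraries overlapped. In batch 2, clone F4 was at 6.00% before treatment, 6.51% at 72 h and 6.64% at 264 h. Clone A12 was at 6.74%, 7.12% and 6.74%, so the fall to 264 h was not seen in both clones there. The counts are relative to all other RNA, so more mitochondrial RNA per cell, fewer cells of a kind and less of other RNA cannot be told apart.

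**Figure D1:**
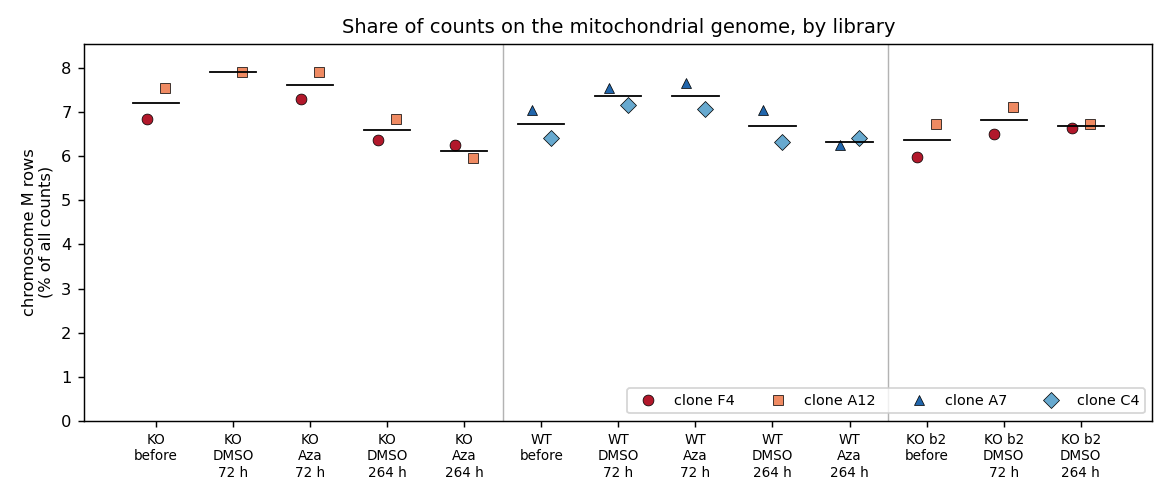
Share of all counts on rows of chromosome M (y axis, percent) for each of 25 libraries (points, shaped by clone) in each group (x axis; b2 is batch 2), with the group mean as a line. Shares run from 5.97% to 7.92%, and 72 h libraries of a batch 1 clone lie above its 264 h libraries. In batch 2 this holds for clone A12 (7.12% and 6.74%) and not for clone F4 (6.51% and 6.64%).

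Of the counts on chromosome M, coding genes held 77.8% to 84.2%, rRNAs 15.1% to 21.4% and tRNAs 0.664% to 0.877%. Complex IV genes held 35.9% to 42.5%, complex I genes 28.8% to 32.1%, ATP synthase genes 7.57% to 8.90% and MT-CYB 3.43% to 4.20%. Per length, in CPM per kb of gene (median over 25 libraries), the highest coding genes were the complex IV subunits MT-CO1 (9400, range 7625 to 11816) and MT-CO3 (9284, range 8017 to 11342), followed by the proton channel subunit MT-ATP6 (8178) and the copper-binding subunit MT-CO2 (6682). Complex I genes followed as MT-ND4L (4386), MT-ND4 (4295), MT-ND3 (3970), MT-ND1 (3853) and MT-ND2 (3139). The lowest were MT-CYB (2262), MT-ND6 (2235), MT-ND5 (1971) and MT-ATP8 (928, range 358 to 1260). From MT-CO1 down to MT-ND5, the range of each gene overlaps that of the next, so neighbours in this order are not separated by their ranges. The range of MT-ATP8 does not overlap that of MT-ND5. MT-ATP8 lies below all others in every library, and 46 of its 207 bases are shared with MT-ATP6. No option to count a read that overlaps several genes is set in the command, and the effect of this on both genes was not tested.

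Coding genes varied little over the series. From the lowest to the highest library, 12 of 13 spanned 1.40-fold (MT-CYB) to 1.97-fold (MT-ND3), and MT-ATP8 spanned 3.52-fold. MT-RNR1, the small rRNA (ENSG00000211459.2, chrM:648-1601), spanned 2.29-fold and MT-RNR2, the large rRNA (chrM:1671-3229), 1.84-fold. Of the tRNA rows, 19 of 22 had a median count under 1000. They ran from a median of 11 counts (MT-TF, 2 to 35) to 5436 (MT-TC, 4293 to 6939). All 37 members passed the filter on low counts in the model of 25 libraries, and for the lowest rows a value near 0.1 CPM is only a few reads.

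The comparison of 72 h in DMSO with the harvest before treatment asks what culture and solvent alone do, and the small rRNA and several tRNA rows rose in it. MT-RNR1 was at 1062 and 1066 CPM in the KO clones and 970 and 991 CPM in the WT clones before treatment. At 72 h in DMSO it was at 1957 CPM in KO clone A12 and 2069 and 1744 CPM in the WT clones of batch 1, and at 1552 and 1482 CPM in the KO clones of batch 2, whose pre-treatment libraries had 961 and 1152 CPM. Every 72 h library of a batch was above every pre-treatment library of that batch. The KO estimates of this comparison take 72 h libraries of both batches, with a batch term, but pre-treatment libraries of batch 1 only. A fit of batch 2 alone is given further below. MT-RNR1 rose by a log2 fold change of 0.83 (SE 0.11, adjusted p = 0.000104) in KO and 0.95 (SE 0.10, adjusted p = 1.8e-05) in WT, with edgeR's quasi-likelihood test and Benjamini-Hochberg adjustment over 18391 genes. All p-values below come from that test, the threshold for a call is an adjusted p of 0.05, and all log2 values are fold changes between groups. Under every alternative run, this call of MT-RNR1 held in both genotypes. MT-RNR2 moved less, by 0.30 in KO (SE 0.09, adjusted p = 0.0283) and 0.43 in WT (SE 0.08, adjusted p = 0.00157). In KO the call of MT-RNR2 was lost without the clone term (adjusted p = 0.0760) or without either pre-treatment library, and without the batch 1 library of clone A12 at 72 h the estimate was 0.11 (adjusted p = 0.513).

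Both rRNA genes sit on the same long RNA. Their ratio within a library needs no library size, as holds for any 2 rows. There were 8.94 to 10.6 MT-RNR1 counts per 100 MT-RNR2 counts in the 4 batch 1 libraries before treatment, 13.4 to 17.0 in the 7 at 72 h and 10.7 to 13.1 in the 8 at 264 h. In batch 2 the ratio was 12.2 and 12.3 before treatment, 13.4 and 14.3 at 72 h, and 10.8 and 11.1 at 264 h. The 3 times of batch 1 did not overlap. This ratio was chosen after seeing the rRNA values and is given as a description.

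Among coding genes at 72 h in DMSO, 4 of 7 complex I members were called higher in each genotype, and the other complexes had no call. In KO, 4 of 13 rose and 1 fell, against 11.4% of all genes tested called in either direction (4.65% higher and 6.7% lower). In WT 4 rose and none fell, against 13.6% (6.41% higher and 7.23% lower). The members that rose in both were MT-ND1 (0.36, SE 0.07, adjusted p = 0.00154 in KO; 0.41, SE 0.06, adjusted p = 0.000235 in WT), MT-ND2 (0.28 and 0.35), MT-ND5 (0.29 and 0.36) and MT-ND6 (0.28 and 0.35). MT-ND1, at chrM:3307-4262 just after MT-RNR2 and MT-TL1, had 3136 and 3490 CPM (KO) and 3313 and 3276 CPM (WT) before treatment. It had 4493 CPM in KO clone A12 and 4353 and 4372 CPM in the WT clones at 72 h in DMSO. MT-ND4, the coding gene called lower in KO (-0.29, SE 0.08, adjusted p = 0.0253), was at -0.10 in WT and was not called there. MT-ND4L was called in neither, with 1481 and 1476 CPM (KO) and 1527 and 1344 CPM (WT) before treatment. At 72 h in DMSO it had 1380 CPM in KO clone A12 and 1351 and 1242 CPM in WT. In batch 2 it had 1292 and 1371 CPM before treatment and 1295 and 1494 CPM at 72 h. The median over the 13 coding genes was 0.02 in KO and 0.12 in WT, beside -0.00133 and -0.02 over all genes.

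The KO count of 5 was 1 without the clone term, 3 within batch 1, and 1 or 2 without the pre-treatment library of clone F4 or A12, all of them among the 5. Without the batch 1 library of clone A12 at 72 h, 6 were called, of which 2 (MT-ND1 higher and MT-ND4 lower) were among the 5, and 5 of these 6 were lower. The WT count of 4 held at 3 to 5 under all settings but one: it was 1 with the failed library included. MT-ND1 was called in both genotypes under every alternative run.

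Of the 22 tRNA rows, 10 were called higher in KO and 11 in WT, with none lower, beside 4.65% and 6.41% of all genes called higher. The estimates of 21 and 22 of them were above 0. DESeq2 gave an adjusted p for 18 rows in KO and 17 in WT and called 7 and 6, which were all of the edgeR calls for which it gave one. MT-TV, the valine tRNA between the rRNA genes, had 2.82 and 3.15 CPM in KO and 3.35 and 3.53 CPM in WT before treatment. At 72 h in DMSO it had 11.4 CPM in KO clone A12 and 12.9 and 11.3 CPM in the WT clones. It rose by 2.25 (SE 0.22, adjusted p = 1.18e-06) in KO and 1.81 (SE 0.20, adjusted p = 6.41e-06) in WT. MT-TL1, the leucine tRNA after MT-RNR2, went from 23.8 and 26.9 CPM (KO) and 25.2 and 30.1 CPM (WT) to 53.6 CPM in KO clone A12 and 52.1 and 48.8 CPM in WT. Called in both genotypes were also MT-TF, MT-TW, MT-TA, MT-TK, MT-TH, MT-TE and MT-TT. The most counted rows, MT-TC, MT-TN and MT-TP, were called in neither genotype (-0.09 to 0.24), so the rise was not shared by all tRNA rows. Summed rows of small nucleolar RNAs, other short nuclear RNAs, moved alongside in batch 1: 80.8 and 84.5 CPM (KO) and 70.1 and 86.5 CPM (WT) before treatment, 117 CPM (KO clone A12) and 92.8 and 106 CPM (WT) at 72 h in DMSO. In batch 2 their sums overlapped, at 88.7 and 95.9 CPM before treatment and 91.8 and 110 CPM at 72 h. Summed rows of replication-dependent histone genes, whose mRNAs are known to lack a poly(A) tail, were at 25.3 and 27.8 CPM in WT before treatment and 40.3 and 41.6 CPM at 72 h in DMSO. In KO they were at 23.2 and 41.0 CPM before treatment and 45.2 CPM (clone A12) at 72 h. In batch 2 they overlapped, at 30.1 and 39.1 CPM against 37.4 and 43.6 CPM. The part of both sums in the result was not tested.

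Batch 2 alone repeats the harvest times in the KO clones with its own libraries. At 72 h against before treatment, 3 coding genes (MT-ND1, MT-ND2 and MT-ND3), both rRNAs and 7 tRNAs were called higher and none lower, against 1.57% of 17477 genes called (0.595% higher and 0.978% lower). MT-RNR1 rose by 0.52 (SE 0.07, adjusted p = 2.01e-07) and MT-ND1 by 0.35 (SE 0.07, adjusted p = 0.00196). Without the clone term, or without the 72 h library of clone F4 (0.42, adjusted p = 0.0563), the MT-RNR1 call in batch 2 was lost. That of MT-RNR2 was lost without the clone term and without the pre-treatment library of clone F4 (adjusted p = 0.557) or the 72 h library of clone F4 (0.460) or A12 (0.0609). DESeq2 gave an adjusted p for 8 of 22 tRNAs and called 3, against 4 of the edgeR calls for which it gave one. The batch 2 coding count of 3 was 0 without the clone term and 0 without the 72 h library of clone F4 or of clone A12. It was 1 without the pre-treatment library of clone F4 and 5 without that of clone A12.

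**Figure D2:**
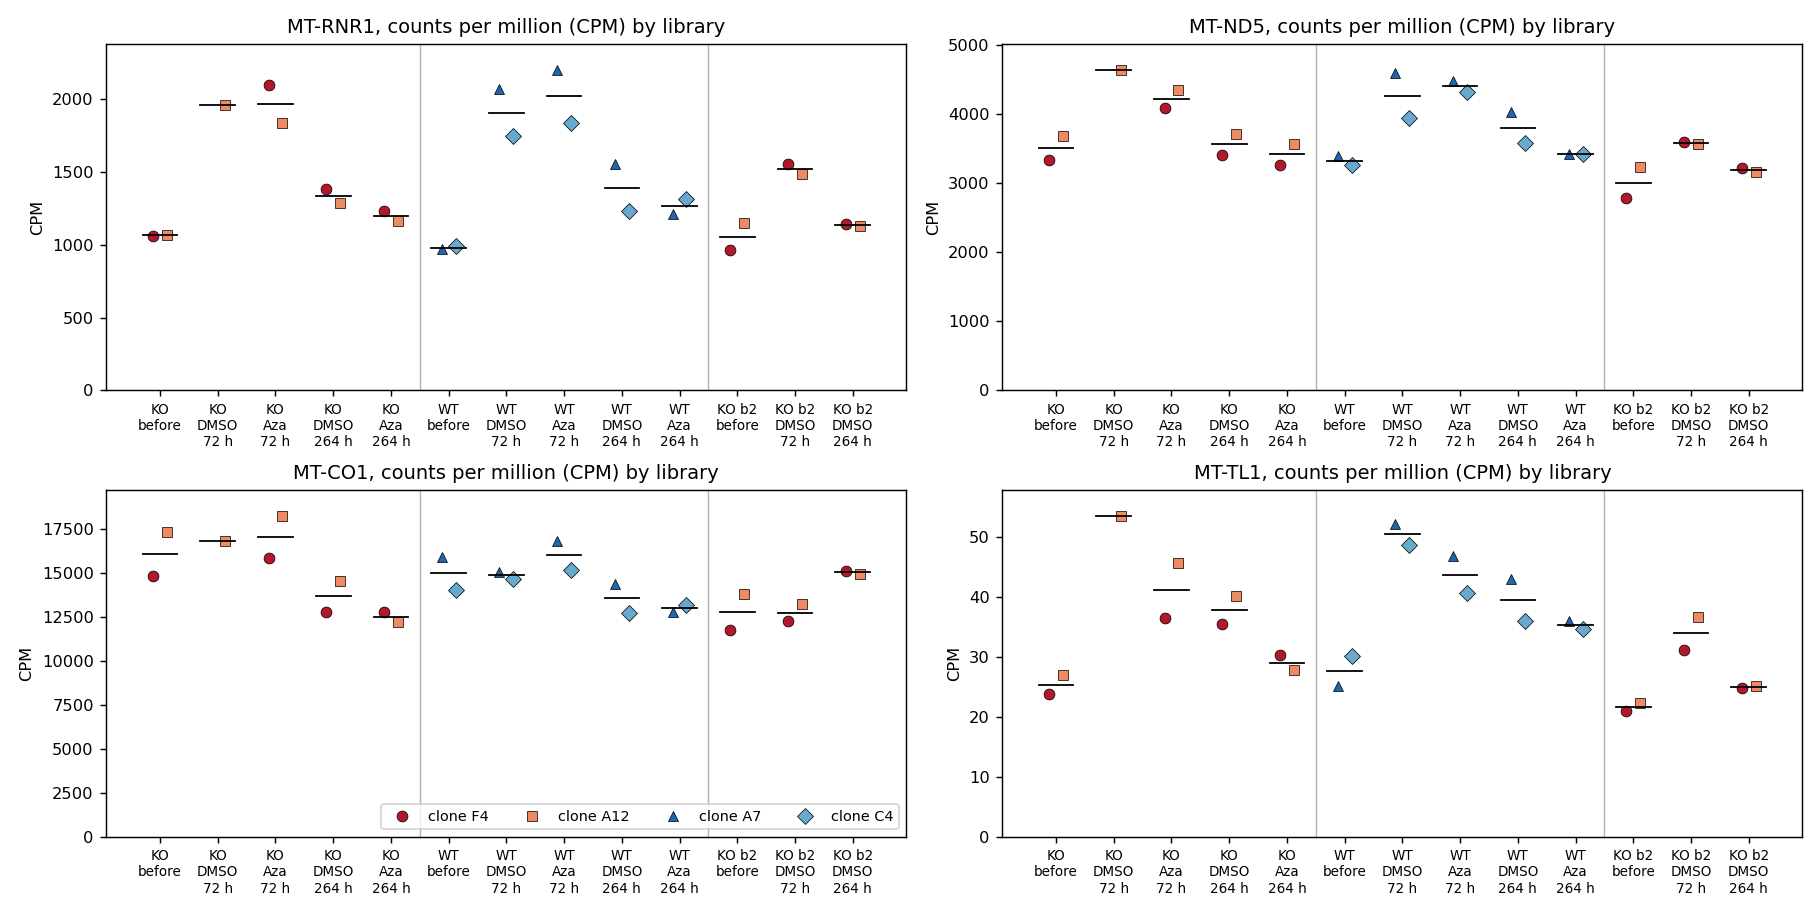
CPM (y axis, from 0) of the small rRNA MT-RNR1, complex I subunit MT-ND5, complex IV subunit MT-CO1 and leucine tRNA MT-TL1 in each library (points, shaped by clone), by group (x axis; b2 is batch 2), with group means as lines. MT-RNR1 and MT-TL1 are higher at 72 h than before treatment in both batches, while MT-CO1 overlaps between the times.

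**Figure D3:**
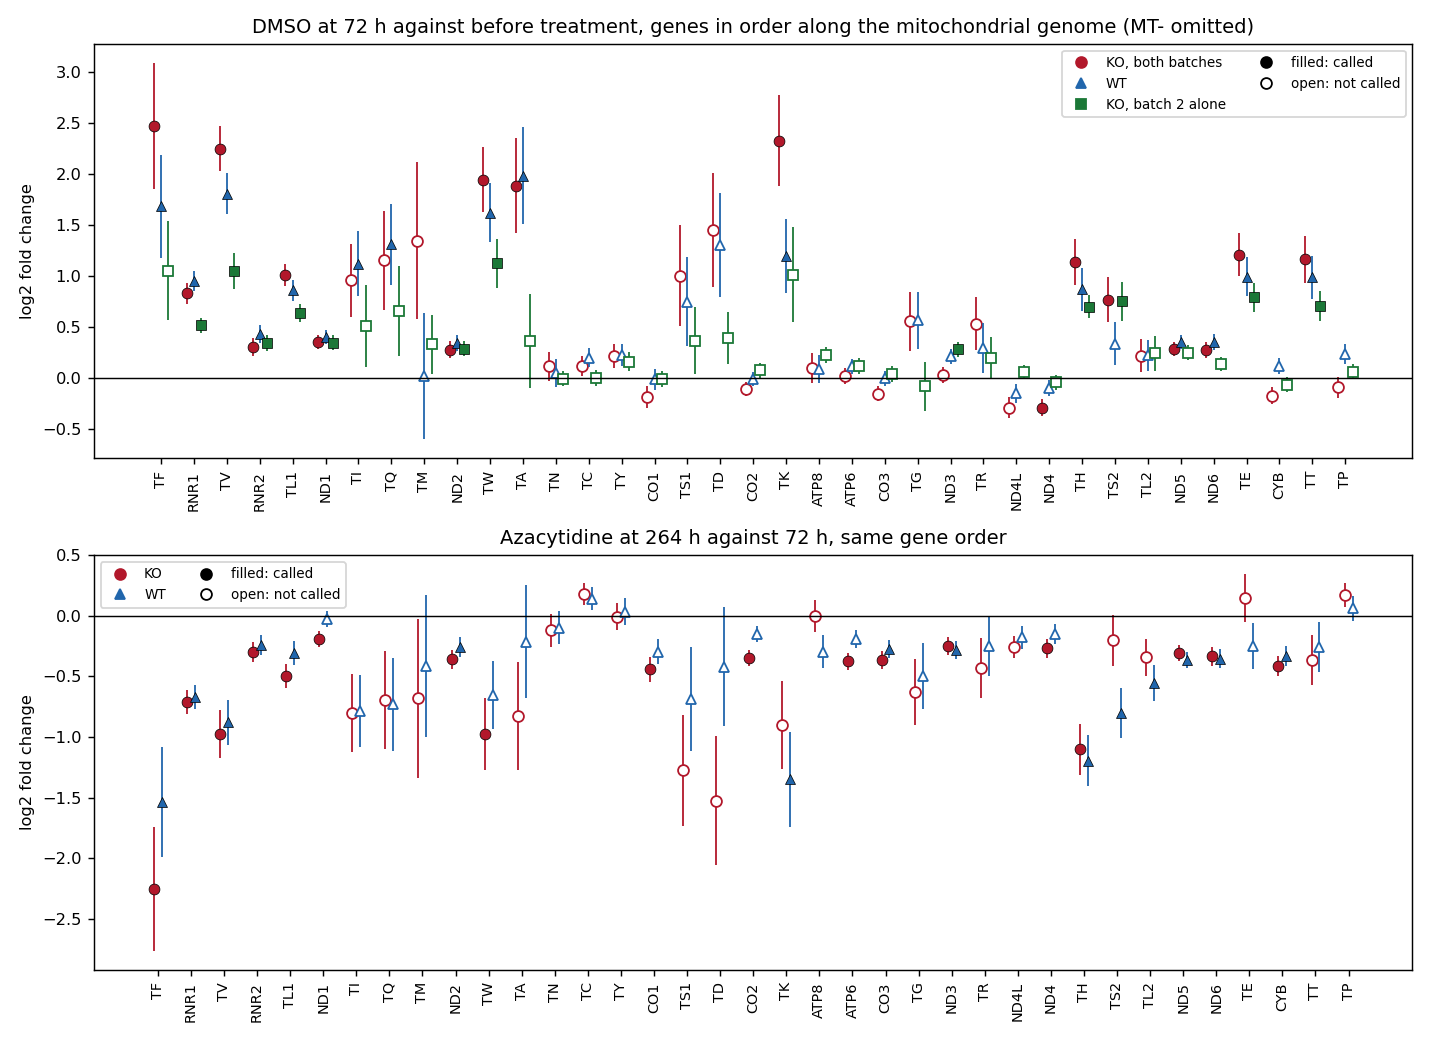
Log2 fold changes (y axis) with SE bars for all 37 members in order along the genome (x axis): above, DMSO at 72 h against before treatment in KO, WT and batch 2 alone; below, Aza at 264 h against 72 h. Filled symbols were called: rRNAs, some tRNAs and some complex I genes are above 0 in the upper panel, where MT-ND4 in KO is the called member below 0, and the called members of the lower panel are below 0.

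From 72 h to 264 h the rise receded. In DMSO, MT-RNR1 of the KO clones had 1383 and 1290 CPM in batch 1 and 1144 and 1129 CPM in batch 2 at 264 h, below all KO libraries of the same batch at 72 h. It fell by 0.47 (SE 0.08, adjusted p = 0.00324) in KO, and within batch 1 libraries alone the estimate was -0.59 (adjusted p = 0.222). In KO, 2 coding genes (MT-ND1, -0.19; MT-ND5, -0.23) and 10 tRNAs fell and none rose, against 4.68% of genes called (2.74% higher and 1.94% lower). In WT, MT-RNR1 had 1552 and 1233 CPM, a log2 difference of -0.46 (SE 0.10, adjusted p = 0.188), and 0 members were called by edgeR, against 0.00544% of genes called. At an unadjusted p under 0.05, 14 of the 37 passed, 6 of them coding, and DESeq2 called 1. The difference between genotypes was not tested.

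The KO coding count of 2 was 0 without the clone term and 0 within batch 1. It was 1 without the 264 h library of clone A12 from batch 1 or either 72 h library of batch 2, and 0 without the 264 h library of clone A12 from batch 2. Without the 72 h library of clone A12 from batch 1, neither of the 2 was called, and MT-CO1, MT-ND4 and MT-ND4L were called higher. In batch 2 alone, MT-RNR1 fell by 0.45 (SE 0.07, adjusted p = 1.22e-06; -0.34 and adjusted p = 0.0647 without the 72 h library of clone F4, and adjusted p = 0.354 without the clone term). In the same fit, 10 tRNAs fell and 1 rose (MT-TP), but MT-ND4L (0.24) and MT-ND4 (0.23) rose and MT-ATP8 fell by 0.26, against 13.8% of genes called (6.56% higher and 7.2% lower). That coding count of 3 was 5 with RLE size factors and with factors computed without chromosome M, 0 without the clone term, 0 or 1 without the 72 h library of clone F4 or A12, and 5, all lower and 1 of them (MT-ATP8) among the 3, without the 264 h library of clone F4.

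In Aza the decline from 72 h to 264 h took in genes of complexes I, III and IV in both genotypes and MT-ATP6 of ATP synthase in KO. In KO, 11 of 13 coding genes fell and none rose, against 20.5% of genes called (9.79% higher and 10.7% lower). In WT, 6 fell and none rose, against 20.4% (10.3% higher and 10.1% lower). All 13 coding estimates were below 0 in both genotypes, with a median of -0.33 in KO and -0.27 in WT, beside -0.01 over all genes in each. In DMSO over the same interval, 10 (KO) and 12 (WT) of 13 were below 0, with medians of -0.09 and -0.14. Whether the decline differs between Aza and DMSO was not tested. MT-CO1, the catalytic subunit of complex IV, had 15846 and 18220 CPM in the KO clones at 72 h and 12780 and 12210 CPM at 264 h. It fell by 0.44 (SE 0.10, adjusted p = 0.00522) in KO, and was at -0.30 in WT without a call. The KO call was lost without the library of clone A12 at 72 h (-0.40, adjusted p = 0.0563) or at 264 h (-0.30, adjusted p = 0.129). MT-CYB fell by 0.41 (SE 0.08, adjusted p = 0.000705) in KO and 0.33 (SE 0.08, adjusted p = 0.00509) in WT, where the call was lost without the 72 h or the 264 h library of clone A7.

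Of the other members in Aza, the complex IV gene MT-CO3, and MT-ND2, MT-ND3, MT-ND5 and MT-ND6 of complex I, fell in both genotypes, by 0.25 to 0.36. In KO alone MT-CO2 (-0.35), MT-ATP6 (-0.38), MT-ND4 (-0.27) and MT-ND1 (-0.19) were also called, and whether these differ between genotypes was not tested. Both rRNAs fell in both genotypes, MT-RNR1 by 0.71 in KO and 0.67 in WT, and 5 and 7 tRNAs fell. The calls of MT-RNR2 (-0.30 in KO and -0.24 in WT) were lost without any of 3 of the 4 libraries compared in each genotype. The KO count of 11 was 7 without the clone term, and 4 without the 264 h library of clone A12. The WT count of 6 was 3 without the clone term, and 3 and 1 without the 72 h and the 264 h library of clone A7.

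Across the whole interval in DMSO, 264 h against before treatment, few members were called. MT-RNR1, MT-TV and MT-TL1 were higher in both genotypes (0.36, 0.98 and 0.58 in KO; 0.50, 1.24 and 0.51 in WT). MT-TE was also higher in WT (0.76). The KO contrast used the pre-treatment libraries of batch 1 only. In batch 2, MT-TV had 3.45 and 3.09 CPM before treatment and 3.28 and 1.76 CPM at 264 h. MT-RNR1 overlapped there (961 and 1152 CPM against 1144 and 1129 CPM), while MT-TL1 was higher (20.9 and 22.4 CPM against 24.8 and 25.2 CPM). The MT-RNR1 call in KO was lost in each fit that left out 1 of the KO pre-treatment or 264 h DMSO libraries (adjusted p = 0.0606 to 0.343), and in WT without the pre-treatment or the 264 h library of clone A7. In KO, that of MT-TV was lost without the clone term (adjusted p = 0.132), without the pre-treatment library of clone F4 and without its batch 1 library at 264 h, and that of MT-TL1 without the pre-treatment library of clone F4. In WT, the calls of MT-TL1 (adjusted p = 0.0741) and MT-TE (adjusted p = 0.110) were lost without the clone term and without either clone A7 library, and that of MT-TV without the 264 h library of clone A7. Of coding genes, MT-CO3 was lower in KO (-0.24, adjusted p = 0.0468; 3.93% of genes called, 1.98% higher and 1.94% lower) and MT-ND1 higher in WT (0.27, adjusted p = 0.0176; 4.92% of genes called, 2.1% higher and 2.82% lower). MT-CO3 was not lower in batch 2, with 6651 and 7279 CPM before treatment and 7111 and 7284 CPM at 264 h. The KO coding count of 1 was 0 without the clone term, 4 within batch 1, 0 with the WT pre-treatment clone labels exchanged, and 0 without the pre-treatment library of either clone or any 264 h library but that of clone F4 from batch 2. The WT count of 1 was 0 without the clone term, 2 within batch 1, 2 without the pre-treatment library of clone A7, and 0 without the 264 h library of either clone.

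Aza against DMSO asks what the drug adds at the same time point, and it moved few members at 72 h. In KO, MT-CYB rose by 0.31 (SE 0.08, adjusted p = 0.0117) and MT-CO2 by 0.21 (SE 0.07, adjusted p = 0.0412), so 2 of 13 coding genes were called higher and none lower, against 20.1% of all genes called (11.6% higher and 8.47% lower). MT-CYB had 2936 and 3000 CPM in Aza, beside 2728 CPM in DMSO in batch 1 and 2316 and 2594 CPM in batch 2. MT-CO2 had 4885 and 5339 CPM in Aza, beside 4662 CPM in batch 1 and 5409 and 5926 CPM in batch 2, so its Aza libraries were above the DMSO library of their own batch and below those of the other. With the failed library included the estimate of MT-CO2 was -0.15. In WT, MT-ND1 fell by 0.24 (SE 0.06, adjusted p = 0.0103), from 4353 and 4372 CPM in DMSO to 3788 and 3599 CPM in Aza, and it was the 1 coding gene of 13 called, against 18.3% of genes (9.26% higher and 9.04% lower). The same gene was at -0.18 in KO (SE 0.07, adjusted p = 0.0677).

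By complex, the 72 h Aza estimates were 0.16 to 0.27 in KO and 0.03 to 0.11 in WT for complex IV, and -0.18 to 0.21 in KO and -0.24 to 0.05 in WT for complex I. ATP synthase genes were at 0.03 (MT-ATP8) and 0.10 (MT-ATP6) in KO and 0.11 and 0.03 in WT, without a call. The coding median was 0.14 in KO and 0.03 in WT, beside 0.01 and 0.00 over all genes. Neither rRNA was called: MT-RNR1 had 2098 and 1833 CPM (KO) and 2202 and 1838 CPM (WT) in Aza, which overlaps DMSO. Of tRNAs, MT-TL1 (-0.32) and MT-TE (-0.68) fell in KO. Within batch 1 neither was called (MT-TL1 -0.32, adjusted p = 0.161; MT-TE -0.41, adjusted p = 0.304), nor was either without the clone term (adjusted p = 0.0831 and 0.0586) or without the Aza library of clone F4. MT-TL1 was also lost without the DMSO library of clone A12 from either batch, and stood at 0.0674 with the failed library included. MT-TE was also lost without the Aza library of clone A12. In WT, MT-TC (-0.39) and MT-TP (-0.42) fell and MT-TS2 rose (0.60), all 3 lost without the clone term (adjusted p = 0.0650, 0.0633 and 0.229). MT-TC was also lost without the Aza or the DMSO library of clone A7, and MT-TS2 without either Aza library or the DMSO library of clone C4. Both MT-TC and MT-TP of the WT clones were lower in each Aza library (173 and 178 CPM; 63.5 and 61.4 CPM) than in each DMSO library (239 and 222 CPM; 84.0 and 82.6 CPM).

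These 72 h counts are sensitive to single libraries. Within batch 1 neither of the 2 KO calls held: MT-CYB was at 0.14 (adjusted p = 0.207) and MT-CO2 at 0.17 (adjusted p = 0.227), and MT-ND1 was the 1 coding gene called, lower (-0.22). The KO count was 0 without the clone term, 4 without the WT pre-treatment libraries, 0 without the Aza library of clone F4 or A12, and 5 (MT-CYB among them, MT-CO2 not) without the batch 1 DMSO library of clone A12. It was 1 (MT-CYB) without that of batch 2, and MT-CO2 lost its call without any 1 of the 5 libraries compared. The WT count of 1 was 0 without the Aza library of clone C4 or either DMSO library. Beside the Aza libraries, summed epithelial markers, nearly all KRT8, were at 51.0 to 62.0 CPM at 72 h in Aza and 32.9 to 41.3 CPM in DMSO, with KRT5 at 0 in all libraries, and summed stromal markers at 2.09 to 6.40 CPM and 0.601 to 2.03 CPM. Their part in the result was not tested.

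At 264 h, Aza and DMSO were not separated for any member. Of 37 members, 0 were called by edgeR in either genotype, against 0.0979% of genes in KO and 0.5% in WT. DESeq2 also called 0 in each, and at an unadjusted p under 0.05, 8 passed in KO (6 coding) and 3 in WT (1 coding). Coding estimates ran from -0.23 (MT-ATP6) to 0.17 (MT-ATP8) in KO and from -0.22 (MT-ATP8) to 0.02 (MT-CO2) in WT, with SEs of 0.06 to 0.14. MT-ATP8 differed between the KO clones in Aza, with 168 CPM in F4 and 261 CPM in A12. In KO, 11 of the 13 were below 0, and in WT 12 were. Without the filter on low counts, 4 coding genes were called in KO.

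**Figure D4:**
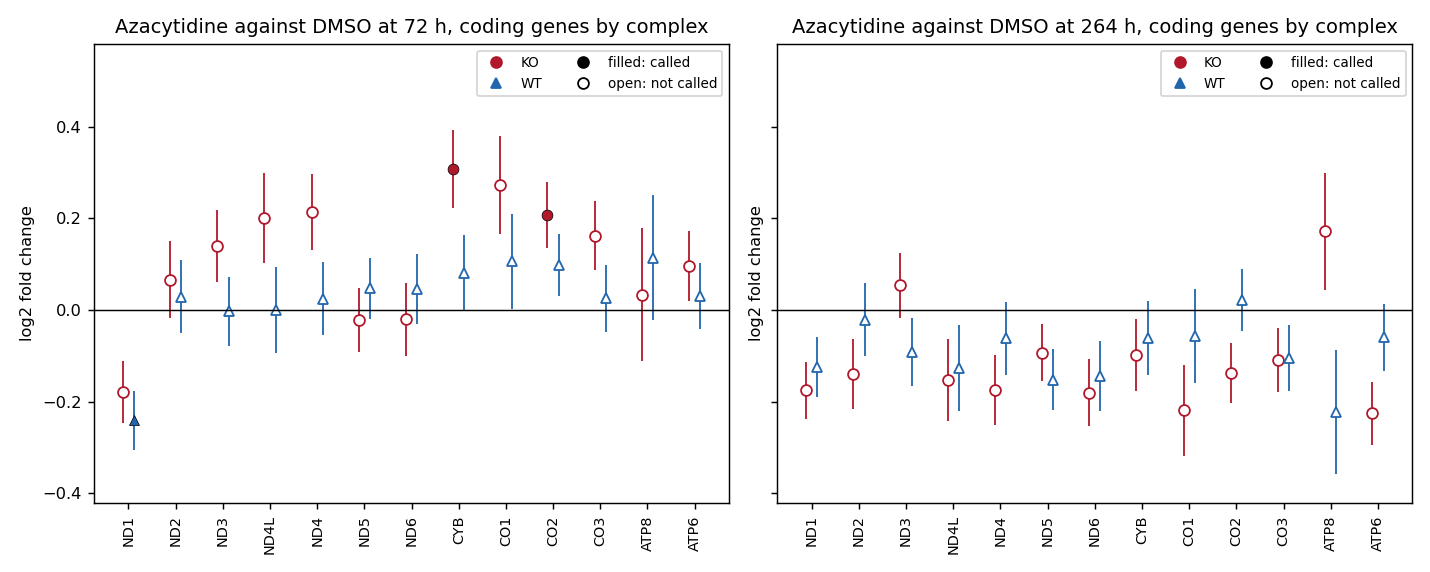
Log2 fold change of Aza against DMSO (y axis) with SE bars for the 13 coding genes, grouped as complex I, complex III, complex IV and ATP synthase (x axis), at 72 h (left) and 264 h (right). Filled symbols were called: MT-CYB and MT-CO2 in KO and MT-ND1 in WT at 72 h, and none at 264 h.

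No member was called between the genotypes. A difference in the Aza effect between KO and WT was not called for any member at 72 h or 264 h (0 called by edgeR and by DESeq2, against 0% of all genes; 2 and 0 of 37 at an unadjusted p under 0.05). At 72 h the difference in the Aza effect, KO minus WT, was 0.23 for MT-CYB (SE 0.12) and 0.06 for MT-ND1 (SE 0.09). KO against WT was tested in 4 conditions of batch 1 with 2 clones each, and 0 members were called in any by either tool, against 0.0543% of genes before treatment, 0.208% for DMSO (264 h), 0.19% for Aza (72 h) and 0.0488% for Aza (264 h). At an unadjusted p under 0.05, 2, 1, 2 and 3 members passed in this order. Before treatment coding differences ran from -0.04 (MT-ND2) to 0.14 (MT-CYB), with 12 of 13 above 0. In DMSO at 264 h they ran from -0.11 to 0.06, in Aza at 72 h from -0.08 to 0.10, and in Aza at 264 h from -0.17 to 0.31. The 0.31 was that of MT-ATP8, which had 168 CPM in KO clone F4 and 261 CPM in KO clone A12, beside 164 and 183 CPM in WT. Without the 264 h Aza library of KO clone F4, only that of clone A12 was left for KO, and the MT-ATP8 difference was 0.59. With 2 clones of each genotype, these tests measure the spread between clones, and small differences cannot be told apart from it.

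The batches differed in several members. In KO clones in DMSO, 4 coding genes were called higher in batch 2 and 3 lower, both rRNAs and 13 tRNAs lower, against 30.5% of genes called (16.3% higher and 14.2% lower). MT-ATP8 was at 164 to 261 CPM in the 19 libraries of batch 1 (median 200 CPM) and 74.2 to 101 CPM in the 6 of batch 2, with no overlap (log2 difference in KO clones in DMSO -1.12, SE 0.11, adjusted p = 4e-06). MT-ND3, a small complex I subunit, was at 1115 to 1543 CPM in batch 1 and 1517 to 2197 CPM in batch 2 (0.60, SE 0.06, adjusted p = 5.89e-08). MT-CO2 (0.37), MT-ND4L (0.29) and MT-ND4 (0.19) were also higher, and MT-ND5 (-0.22) and MT-ND6 (-0.21) lower. Of tRNA rows, MT-TD (-2.27), MT-TR (-1.38) and MT-TA (-1.34) were the lowest relative to batch 1. Batch and genotype are not crossed, since batch 2 holds KO clones in DMSO only.

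**Figure D5:**
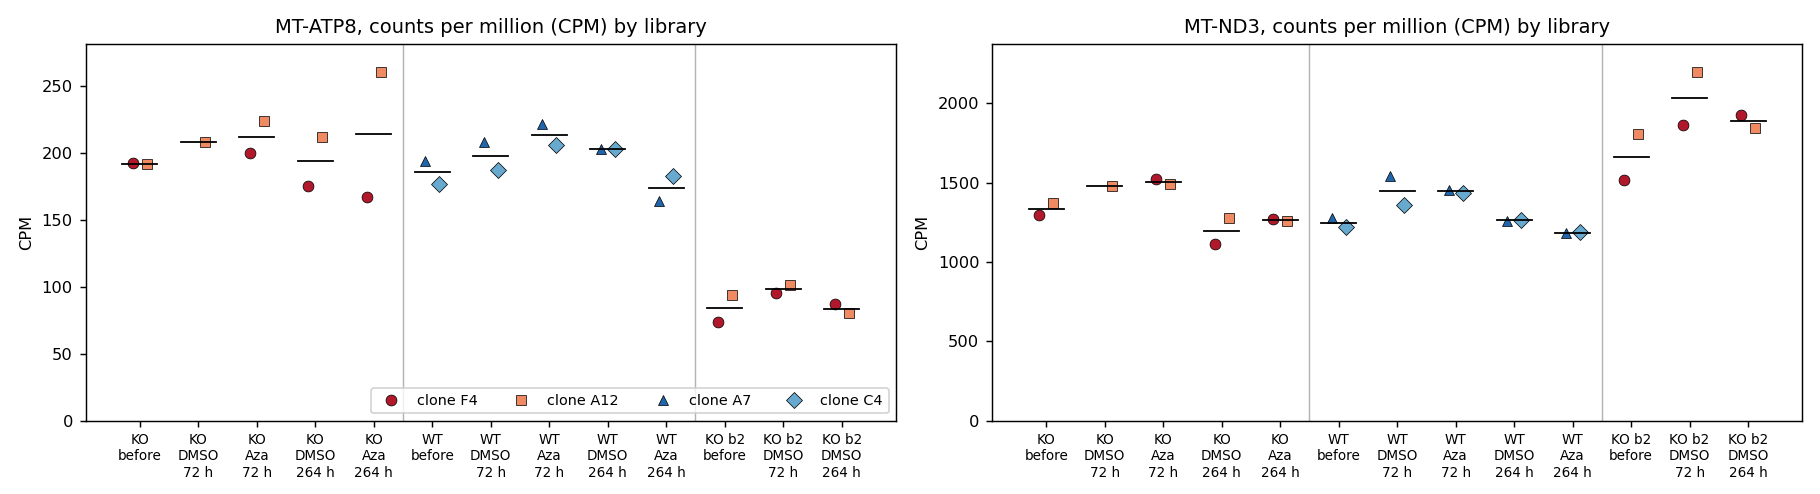
CPM (y axis, from 0) of the ATP synthase subunit MT-ATP8 and complex I subunit MT-ND3 in each library (points, shaped by clone), by group (x axis; b2 is batch 2), with group means as lines. MT-ATP8 reaches at most 101 CPM in batch 2 and at least 164 CPM in batch 1, and MT-ND3 reaches 2197 CPM in batch 2.

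The nuclear partners of these genes were read from 10 lists. For the 78 nuclear subunits of complexes I to IV and ATP synthase, Aza at 72 h called 3 higher and 4 lower in KO and 1 higher and 6 lower in WT, all in complex I, and none at 264 h in either. The 7 called of 78 in each genotype stand beside 20.1% (KO) and 18.3% (WT) of all genes called. In KO the 3 rises were NDUFA8 (0.38), NDUFB9 (0.25) and NDUFS8 (0.22). The largest of the 4 falls in KO were NDUFA13 (-0.63), NDUFS4 (-0.59) and NDUFB3 (-0.27). NDUFA8, NDUFB9 and NDUFS4 are accessory subunits. In WT the 1 rise was NDUFA8 (0.29), and the largest of the 6 falls were NDUFS4 (-0.71), NDUFB8 (-0.39) and NDUFB3 (-0.28). At 72 h in DMSO against before treatment, 0 of the 78 rose and 8 fell in KO, against 4.65% of all genes called higher and 6.7% lower. In WT 15 rose and 1 fell, against 6.41% higher and 7.23% lower. In batch 2 against batch 1, 59 were higher and 4 lower, against 16.3% and 14.2%. From 72 h to 264 h in Aza, 11 of the 78 rose and 0 fell in KO, against 9.79% higher and 10.7% lower. In WT 5 rose and 5 fell, against 10.3% and 10.1%.

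For mitochondrial transcription (9 genes), POLRMT, the mitochondrial RNA polymerase, fell in Aza at 72 h by 0.27 in KO (SE 0.07, adjusted p = 0.00693) and 0.25 in WT (SE 0.07, adjusted p = 0.00973). TEFM, its elongation factor, fell in WT (-0.30). At 72 h in DMSO against before treatment, 1 of 9 rose in KO and 4 in WT, and none fell. Of all genes, 4.65% (KO) and 6.41% (WT) were called higher and 6.7% and 7.23% lower. Of 18 genes for RNA processing and stability, TRMT10C, a subunit of the mitochondrial RNase P, rose in KO in Aza (0.29), and PNPT1, a mitochondrial exoribonuclease, fell in KO (-0.36) and WT (-0.28). Of 11 genes for mitochondrial DNA replication, the nuclease MGME1 rose in KO (0.73, SE 0.09) and WT (0.59, SE 0.09), and the DNA polymerase POLG in KO (0.25) and WT (0.29). TOP1MT rose in KO (0.29). Among nuclear regulators, of which 5 of 6 were tested, PPARGC1B fell in KO (-0.28), and in WT PPRC1 rose (0.26) and NRF1 fell (-0.24). Aza at 72 h thus called 0 higher and 1 lower of 9 transcription genes in KO, and 0 and 2 in WT. Of 18 processing genes it called 1 and 1 in KO, and 0 and 1 in WT. Of 11 replication genes, 3 were higher in KO and 2 in WT, with 0 lower. Of 5 regulators, it called 0 and 1 in KO, and 1 and 1 in WT. Among all genes, 11.6% (KO) and 9.26% (WT) were called higher and 8.47% and 9.04% lower. In Aza against DMSO at 264 h, none of the genes on these lists was called.

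Nuclear copies of mitochondrial genes share sequence with the members, so their counts are uncertain. Of 20 on the list, 9 passed the filter. In Aza at 72 h, 0 were called in KO and 6 lower in WT, led by copies of MT-RNR2: MTRNR2L2 (-1.52, SE 0.43), MTRNR2L12 (-1.32, SE 0.32) and MTRNR2L8 (-1.18, SE 0.33). Among all genes, 20.1% were called in KO (8.47% lower) and 18.3% in WT (9.04% lower). MT-RNR2 itself was at -0.13 in WT (adjusted p = 0.341). The copies summed to 128 to 213 CPM per library, beside 7879 to 14514 CPM for MT-RNR2 alone.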

How the data were processed

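RNA of TF-1 clones was sequenced as stranded poly(A) mRNA libraries, per the labels' protocols. The authors deposited 1 table of raw counts per gene. Per the file headers, paired reads were counted with featureCounts 1.6.2 over exons of GENCODE 19 with no strand option, and gene length (another column deposited by the authors) is summed exon length. The submitters' processing notes name cutadapt, FastQC, STAR 2.6.1d, DESeq2 and hg19.

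The counts were tested with edgeR 4.0.16 (quasi-likelihood, robust, TMM, filterByExpr, Benjamini-Hochberg over all genes, R 4.3.3). 1 model of 25 libraries had terms for group, clone and batch. KO against WT, and batch 2 alone, had fits of their own. DESeq2 1.42.0 and other alternatives were run, and the code was tested on simulated data. CPM used TMM library sizes, and 3 counts equal 0.0747 to 0.120 CPM.

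Clone was used as the replicate block. Libraries of 1 clone deviated together (r 0.287 to 0.674 in KO and 0.451 to 0.516 in treated WT, over 3000 genes), except WT before treatment (-0.523 to -0.478). Replicates are clones or cultures of them, so p-values measure the spread between these libraries. Over 18 replicate pairs the chi-square per degree of freedom was at least 12.3.

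Members and gene lists were chosen with earlier results of these data known. Of 21 comparisons, 14 were planned, and 7 (264 h against 72 h in Aza, 264 h against pre-treatment, and those of batch 2) were added after seeing the data. All members were described. Of nuclear lists, up to 3 called genes in each direction were named for each Aza comparison.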

Additional observations from a re-analysis of the deposited data

How the results depend on the processing

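Counts below are of the 13 coding genes called. Without a filter on low counts the count was 7 for Aza in KO at 72 h, 4 for Aza in KO at 264 h, 9 and 6 in KO for DMSO at 72 h against pre-treatment and 264 h against 72 h, 10 for Aza at 264 h against 72 h in WT, and 5 (KO) and 6 (WT) for 264 h against pre-treatment. Without the replicate block (clone) it was 0 for Aza in KO at 72 h, 1 and 0 in KO for DMSO at 72 h against pre-treatment and 264 h against 72 h, 7 (KO) and 3 (WT) for Aza at 264 h against 72 h, 0 in both genotypes for 264 h against pre-treatment, and 0 in both comparisons of batch 2 alone. No paired analysis was possible because clone fixes genotype where KO was set against WT. Within batch 1 it was 1 for Aza in KO at 72 h, 3 and 0 in KO for DMSO at 72 h against pre-treatment and 264 h against 72 h, and 4 (KO) and 2 (WT) for 264 h against pre-treatment. With the failed library included it was 0 for Aza at 72 h in both genotypes, 2 (KO) and 1 (WT) for DMSO at 72 h against pre-treatment, 0 for 264 h against 72 h in KO, 2 (KO) and 0 (WT) for Aza at 264 h against 72 h, 0 in both for 264 h against pre-treatment, and 2 for batch 2 against batch 1. MT-TL1 (0.0674) and MT-CO2 (-0.154) then reversed for Aza in KO at 72 h. Exchanging the WT pre-treatment clone labels gave 0 for 264 h against pre-treatment in KO. Without the WT pre-treatment libraries, an alternative chosen after seeing the data, it was 4 for Aza in KO at 72 h and 5 for 264 h against 72 h in KO. RLE factors, and factors without chromosome M, each gave 5 for batch 2 alone at 264 h against 72 h. The cause was not tested in these cases.

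Leaving out 1 library at a time gave 1 to 6 (KO) and 3 to 4 (WT) for DMSO at 72 h against pre-treatment, 0 to 3 (KO) and 0 to 0 (WT) for 264 h against 72 h, and 0 to 1 (KO) and 0 to 2 (WT) for 264 h against pre-treatment. It gave 0 to 5 (KO) and 0 to 1 (WT) for Aza at 72 h, 0 to 0 in both at 264 h, and 4 to 11 (KO) and 1 to 6 (WT) for Aza at 264 h against 72 h. It gave 0 to 0 for the 2 interactions and 3 of the KO against WT comparisons, 0 to 1 for KO against WT in Aza at 264 h, 6 to 8 for batch 2 against batch 1, and 0 to 5 in both comparisons of batch 2 alone. Of 1145 values of single called members under other settings, 956 kept direction and call, 187 lost the call and 2 reversed. Of 718 without 1 library, 477 kept both and 241 lost the call.

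Depth limits the size of change in the lowest tRNA rows: MT-TF had 2 to 35 counts per library, and its log2 fold change of 2.47 for DMSO at 72 h against pre-treatment in KO had an SE of 0.62.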

Other observations

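The batch 1 library that failed quality control (KO clone F4, DMSO, 72 h) was left out of all fits except the alternative that includes it. It had 7.05% of its counts on chromosome M, within the 5.97% to 7.92% of the other 25 libraries.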
